A study of Macaca mulatta with 4 samples.

Results

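The HOX cluster genes are homeobox transcription factor genes that give cells their position along the head-to-tail axis. They were taken as every row of the deposited expression table whose gene symbol is HOX followed by a cluster letter from A to D and a number, and 35 of the 23697 rows met this. The reference gene table of the rhesus monkey holds 39 such genes. HOXB13, HOXC12, HOXD4 and HOXD12 have no row and were not analysed here. Of the 35 members, 11 belong to the HOXA cluster, 9 to HOXB, 8 to HOXC and 7 to HOXD. All 35 enter the counts and sums below, low values included, and 11 of them had a mean of at least 1 FPKM (fragments per kilobase, a level corrected for gene length and for library size) over the libraries used.

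RNA was sequenced from cultured cells of the rhesus monkey, Macaca mulatta, in a series about haploid neural progenitor cells and their use in mutation screens. The libraries compared were diploid embryonic stem cells (ESCs), haploid ESCs and diploid neural progenitor cells (NPCs). The labels give embryonic day 3.5 for the diploid ESC and diploid NPC samples and 2.5 for the haploid ESC sample, with embryo as the tissue and in vitro differentiation as the source. Where 3 values stand in a row, they are those of diploid ESCs, haploid ESCs and NPCs in that order. Each group is 1 library, so no difference below has a replicate check and no test between groups could be made. The ploidies also differ in labelled day, and these cannot be told apart. Haploid NPCs, the remaining sample of the series, were not analysed here. No genetic change is named in the labels of these samples, and the sources used here do not say which cell line or clone each library came from, or how the NPCs were patterned.

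HOX genes lie in 4 clusters that arose by duplication of an ancestral cluster. Members at the same place in different clusters are called paralogues and share a number, from 1 at the anterior end to 13 at the posterior end. Low-numbered genes are switched on early and reach into the hindbrain, middle numbers act in the neck and trunk, and the highest numbers act in the lumbar and tail regions. Retinoic acid, FGF and Wnt signals switch the clusters on, and polycomb proteins keep them silent in pluripotent cells and in the forebrain and midbrain. In the neural tube, the set of HOX genes that is on is read as a sign of the level along the axis.

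Pluripotency markers separated the ESC libraries from the NPC library, and part of the neural progenitor markers did. All 5 pluripotency markers were at least 4-fold lower in NPCs than in diploid ESCs, beside 3.73% of all rows. Their summed level was 2429 FPKM in diploid stem cells, 1895 FPKM in haploid stem cells and 3.05 FPKM in progenitors. The 7 neural progenitor markers summed to 417 FPKM in diploid and 479 FPKM in haploid stem cells and to 843 FPKM in progenitors. All 7 were at 1 FPKM or more in NPCs. Of these, 3, namely SOX1, FABP7 and ZIC1, were at least 4-fold higher there than in diploid ESCs, beside 5.06% of all rows. SOX2, which stem cells also express, had 149 FPKM in the diploid stem cell library and 109 FPKM in progenitors, and NES had 253 and 280 FPKM. Neuron markers were also present in NPCs, with a sum of 592 FPKM over 5 genes against 52.4 FPKM in diploid ESCs. Relative depth, judged from the steps between low values, was 95.3% of the diploid ESC library in haploid ESCs and 78.2% in NPCs, so values near 0 are coarsest in NPCs. A difference in level can come from fewer expressing cells or from less RNA per cell, and bulk libraries do not tell these apart.

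HOX transcripts were scarce in both ESC libraries and stood at low to moderate levels in NPCs. Summed over the 35 members, the level was 10.4 FPKM in the diploid ESC library, 6.37 in the haploid one and 74.6 in NPCs. That is a 7.17-fold higher sum in NPCs than in diploid ESCs. In diploid ESCs 3 members stood at 1 FPKM or more, in haploid ESCs 1 did, and in NPCs 15. Among all rows of the table, 57.9%, 55.5% and 59.2% reached that level in the same libraries, so HOX genes as a class were below the typical gene in all of them, least so in NPCs. The median member was at 0.07 FPKM in the diploid and 0.09 in the haploid ESC library and 0.39 in NPCs, beside 2.06, 1.79 and 2.25 FPKM for the median of all genes. NPCs were above both ESC libraries for 21 of the 35 members, or 60.0%, beside 43.7% of all rows, and below both for 6 members, or 17.1%, beside 34.2%.

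**Figure D1:**
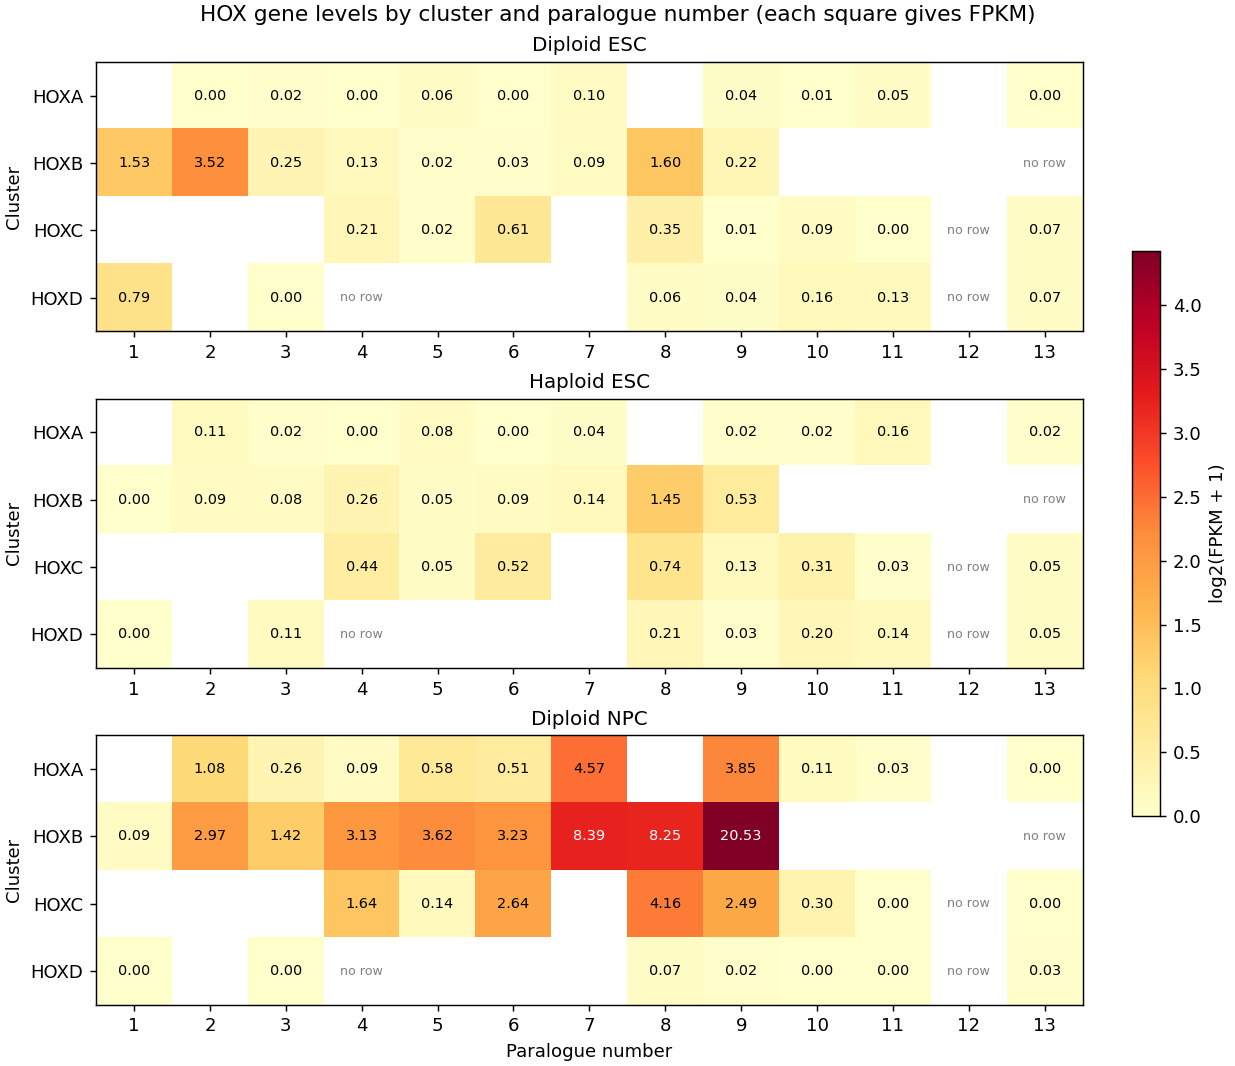
FPKM of HOX genes by cluster (rows) and paralogue number (columns) in diploid ESCs, haploid ESCs and diploid NPCs, 1 library each, coloured by log2(FPKM + 1); white squares are genes that do not exist, are not shown or, where marked, have no row. Squares of paralogues 4 to 9 of HOXA, HOXB and HOXC carry most of the colour in NPCs, with HOXB9 highest at 20.5 FPKM, while HOXB1, HOXB2 and HOXB8 lead in diploid ESCs.

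The HOXB cluster carried most of the HOX RNA of NPCs. Its 9 members summed to 51.6 FPKM, against 7.39 in the diploid and 2.69 in the haploid ESC library. That is 69.2% of all HOX FPKM in NPCs. The share was 71.1% in diploid ESCs and 42.2% in haploid ESCs, so it was not particular to NPCs. In NPCs 8 of the 9 stood at 1 FPKM or more, HOXB1 being the exception.

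HOXB9, a gene of thoracic levels, was the most abundant HOX transcript of any library. It stood at 0.22 FPKM in diploid stem cells, 0.53 FPKM in haploid stem cells and 20.5 FPKM in progenitors. In NPCs 81.3% of all genes had a lower value, whereas in diploid ESCs 27.0% did. The log2 ratio of NPCs to diploid ESCs, taken on FPKM plus 1, was 4.14, and against haploid ESCs, which share the NPC library with the first ratio, it was 3.81. The next gene along the cluster, HOXB8, which marks brachial and thoracic levels, was at 1.6 FPKM in the diploid ESC library, 1.45 in the haploid one and 8.25 in NPCs. It was the only member at 1 FPKM or more in all 3 libraries, and its ratio of NPCs to diploid ESCs was 1.83, short of 4-fold. HOXB7, its neighbour, reached nearly the same level in NPCs from a much lower one in ESCs. HOXB7 was at 0.09 FPKM in the diploid and 0.14 in the haploid ESC library and 8.39 in NPCs. Its log2 ratio of NPCs to diploid ESCs was 3.11. In the reference annotation, which is of another assembly than the counts, LOC114673140, a protein-coding gene with no row, overlaps HOXB7, HOXB8 and HOXB9. If it overlaps them in the counted annotation too, reads of these HOX genes may have been lost.

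The middle of the HOXB cluster stood at an even level in NPCs. HOXB6 was at 0.03 FPKM in the diploid and 0.09 in the haploid ESC library and 3.23 in NPCs. HOXB5, a gene of the caudal hindbrain and neck, was at 0.02, 0.05 and 3.62 FPKM in the same order. HOXB4, whose anterior limit in the mouse lies in the caudal hindbrain, was at 0.13, 0.26 and 3.13 FPKM. These 3 genes lay within a narrow band in NPCs and were all under 0.3 FPKM in both ESC libraries. HOXB3, which helps pattern the caudal hindbrain, stood below these genes in NPCs, at 1.42 FPKM, against 0.25 in the diploid and 0.08 in the haploid ESC library. In the reference annotation, which is of another assembly than the counts, the span of HOXB3 overlaps those of HOXB4, LOC106994014 and LOC106994016. LOC106994014 and LOC106994016, described below, were at 4.83 and 0.45 FPKM in NPCs. If these genes overlap in the counted annotation too, reads may have been lost from them or moved between them.

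The anterior end of HOXB behaved differently from its middle. HOXB2, which acts in hindbrain segments, stood at 3.52 FPKM in diploid stem cells, 0.09 FPKM in haploid stem cells and 2.97 FPKM in progenitors, so that diploid ESCs and NPCs were alike in level and haploid ESCs stood apart. HOXB1, which in the mouse sets the identity of a single hindbrain segment, reached 1.53 FPKM in diploid ESCs and 0.09 in NPCs and had a listed value of 0 in the haploid library. HOXB1 had the lowest log2 ratio of NPCs to diploid ESCs among the members, at -1.21. Only HOXB1 and HOXB2 of their cluster were not highest in NPCs. NPCs were thus above both ESC libraries for 77.8% of HOXB members, beside 43.7% of all rows.

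HOXA genes were nearly silent in ESCs and were led in NPCs by HOXA7 and HOXA9. The 11 members summed to 0.4 FPKM in the diploid ESC library, 0.67 in the haploid one and 11.5 in NPCs, and none of them reached 1 FPKM in either ESC library. HOXA7, a gene of brachial and thoracic levels, stood at 0.1 FPKM in the diploid and 0.04 in the haploid ESC library and 4.57 in NPCs, a log2 ratio of 2.34 to diploid ESCs. HOXA9, the paralogue of HOXB9, was at 0.04, 0.02 and 3.85 FPKM, a log2 ratio of 2.22. For both genes the NPC value was far above both ESC values. HOXA2, whose loss in the mouse changes the identity of the second branchial arch, was the third HOXA gene at 1 FPKM in NPCs. Its value was listed at 0 for diploid ESCs, with 0.11 FPKM in the haploid library and 1.08 in NPCs.

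The HOXA genes between HOXA2 and HOXA7 stayed under 1 FPKM in NPCs. HOXA5, which in the mouse is needed by phrenic motor neurons, was at 0.58 FPKM there, HOXA6 at 0.51 FPKM, HOXA3 at 0.26 FPKM and HOXA4 at 0.09 FPKM. Their HOXB paralogues HOXB5, HOXB6, HOXB3 and HOXB4 were each higher in the same library, so the dip within HOXA had no counterpart of that depth in HOXB. In the reference annotation, which is of another assembly than the counts, HOXA3 spans HOXA4, HOXA5 and HOXA6 and overlaps HOXA7. If they overlap in the counted annotation too, reads of these genes may have been assigned to another of them or to none. Past HOXA9 the values dropped: HOXA10 was at 0.11 FPKM in NPCs, HOXA11 at 0.03 FPKM, and HOXA13 was listed at 0.

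The HOXC cluster stood at a lower level than HOXB in NPCs, with its highest member at paralogue 8 rather than 9. Its 8 members summed to 1.36 FPKM in the diploid ESC library, 2.27 in the haploid one and 11.4 in NPCs, and 4 of them stood at 1 FPKM or more in NPCs. HOXC8, which in the mouse acts in brachial motor neurons, was at 0.35 FPKM in the diploid and 0.74 in the haploid ESC library and 4.16 in NPCs, a log2 ratio of 1.93 to diploid ESCs. HOXC9, which in the mouse sets thoracic motor columns and represses more anterior HOX genes, was at 0.01, 0.13 and 2.49 FPKM, a ratio of 1.79. HOXC6, which marks the forelimb level, was at 0.61, 0.52 and 2.64 FPKM. All of these stood above both ESC values in NPCs, and none reached 4-fold on FPKM plus 1. HOXC4 was at 0.21 FPKM in diploid stem cells, 0.44 FPKM in haploid stem cells and 1.64 FPKM in progenitors, whereas HOXC5, between HOXC4 and HOXC6, was at 0.02, 0.05 and 0.14 FPKM. HOXC10, of lumbar levels, was at 0.09 FPKM in the diploid ESC library, 0.31 in the haploid one and 0.3 in NPCs. HOXC11 and HOXC13 were listed at 0 in NPCs and were at most 0.07 FPKM in ESCs. In the reference annotation, which is of another assembly than the counts, the span of ATP5MC2 overlaps every HOXC gene. ATP5MC2 was at 170, 129 and 121 FPKM. If it overlaps them in the counted annotation too, reads may have been lost from the HOXC genes or moved between them and ATP5MC2.

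HOXD genes were close to absent from NPCs. Their sum was 1.25 FPKM in the diploid and 0.74 in the haploid ESC library and 0.12 in NPCs. In NPCs 4 of the 7 members were listed at 0 and the highest, HOXD8, was at 0.07 FPKM. HOXD9, which shares its number with the most abundant HOX gene of NPCs, was at 0.04 FPKM in diploid stem cells, 0.03 FPKM in haploid stem cells and 0.02 FPKM in progenitors. HOXD10, a gene of lumbar motor neurons in the mouse, was at 0.16 and 0.2 FPKM in diploid and haploid ESCs and was listed at 0 in NPCs, and HOXD11 was at 0.13 and 0.14 FPKM and listed at 0. In no HOXD gene was NPC the highest library, while 4 of the 7, or 57.1%, were lowest there. Among all rows, NPCs were above both ESC libraries in 43.7% and below both in 34.2%. Differences between values this near 0 rest on few reads, and a value listed at 0 in the shallower NPC library does not show absence. A further row, LOC106995847, is annotated in the deposited table as a homeobox protein of the group that HOXB8, HOXC8 and HOXD8 share, and was at 0.01, 0.51 and 0.01 FPKM. Its place among the clusters was not found in the reference table.

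**Figure D2:**
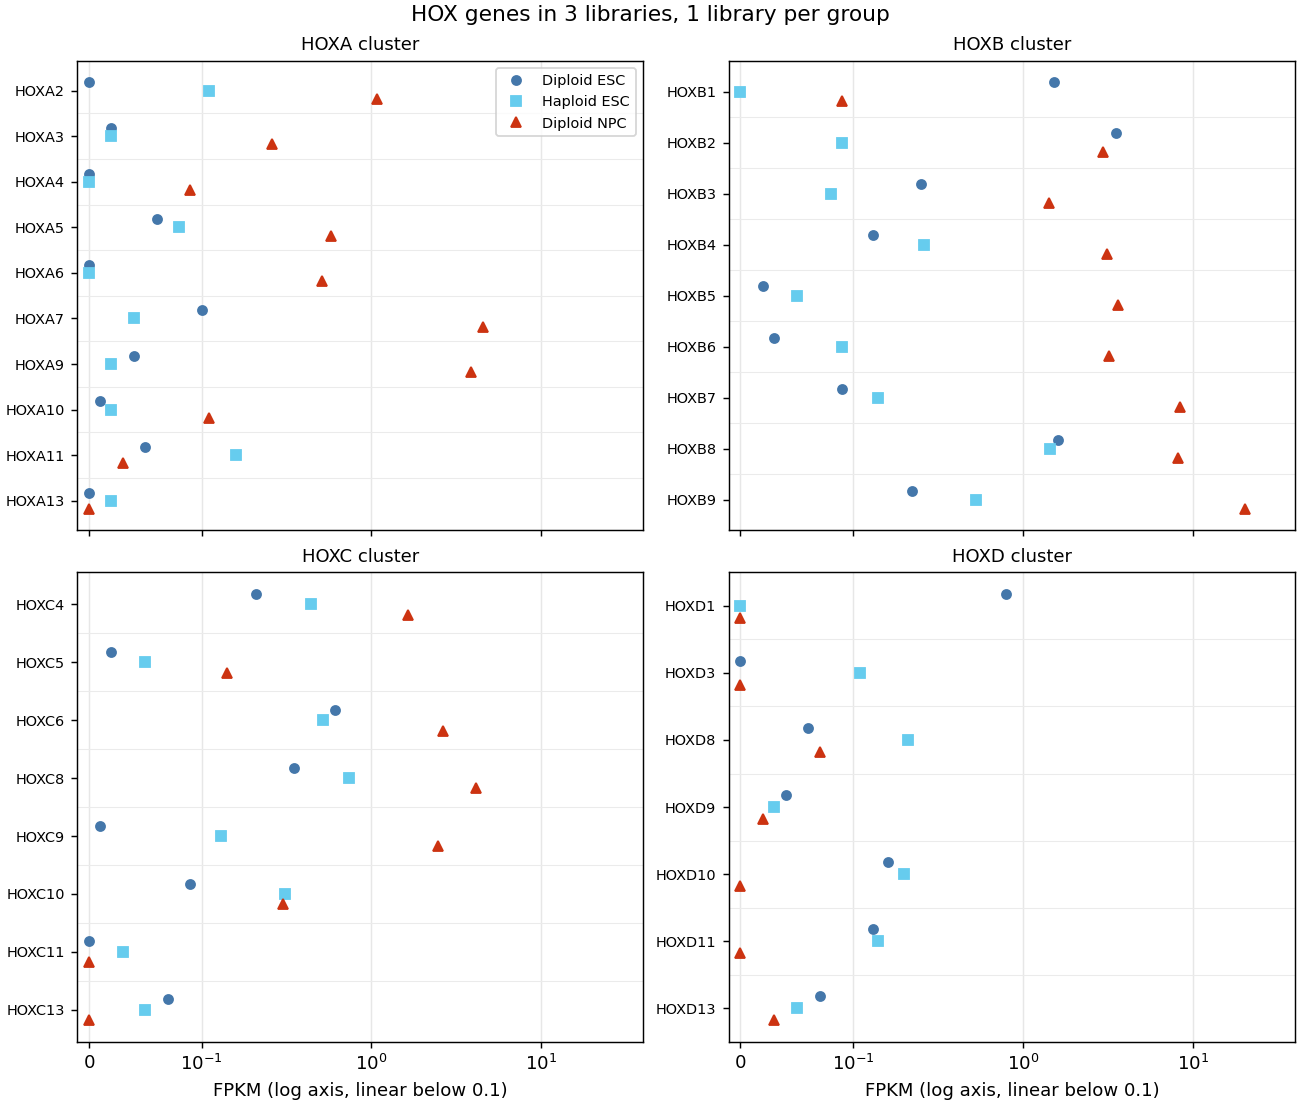
FPKM of HOX genes in diploid ESCs (circles), haploid ESCs (squares) and diploid NPCs (triangles), 1 library each, in 1 panel per cluster from low to high paralogue number; the axis is logarithmic above 0.1 FPKM and linear below it. Triangles lie to the right of both other symbols for 7 of 9 HOXB and 5 of 8 HOXC genes and for 0 of 7 HOXD genes. Among all rows, NPCs were above both ESC libraries in 43.7%.

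Ordered by paralogue number, most of the HOX RNA of NPCs came from numbers 2 to 9. Paralogue 9 held 36.1% of all HOX FPKM, with 26.9 FPKM over 4 genes, of which HOXB9 gave 20.5 FPKM. Paralogues 7 and 8 summed to 12.96 and 12.5 FPKM. Paralogues 4, 5 and 6 summed to 4.86, 4.34 and 6.38 FPKM, paralogue 2 to 4.05 FPKM and paralogue 3 to 1.68 FPKM. The sums past 9 were much smaller, at 0.41 FPKM for paralogue 10 and 0.03 FPKM each for 11 and 13. The step from 9 to 10 was the same way in HOXA (3.85 against 0.11 FPKM), HOXC (2.49 against 0.3 FPKM) and, at values near 0, HOXD, and HOXB has no paralogue 10.

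Of the 18 members numbered 4 to 9, 16 (88.9%) were higher in NPCs than in both ESC libraries, beside 43.7% of all rows. HOXD8 and HOXD9 were the exceptions. The 18 members held 91.0% of HOX FPKM in NPCs, against 34.5% in diploid ESCs and 75.0% in haploid ESCs. Of the 8 members numbered 1 to 3, 4 (50.0%) were higher in NPCs than in both ESC libraries, near the 43.7% of all rows. Of the 9 members numbered 10 to 13 this held for HOXA10 alone (11.1%). Genes of the same number were not always alike: HOXB7 and HOXA7 were both at least 4-fold above diploid ESCs in NPCs on FPKM plus 1, HOXB9 and HOXA9 were too, HOXC9 was 1.79 higher on the log2 scale, and HOXD9 was not higher.

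**Figure D3:**
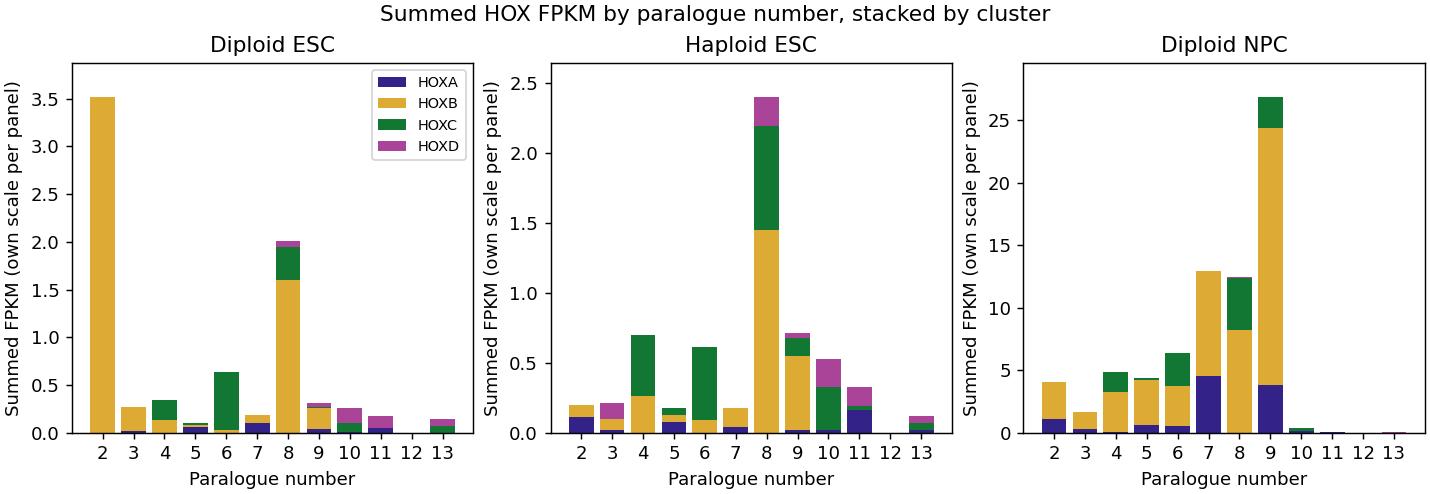
Summed FPKM of HOX genes by paralogue number from 2 to 13, stacked by cluster, in diploid ESCs, haploid ESCs and diploid NPCs, 1 library each; each panel has its own scale starting at 0, and number 12 has no row in the table. Paralogue 2 is highest in diploid ESCs at 3.52 FPKM, paralogue 8 in haploid ESCs at 2.4 FPKM and paralogue 9 in NPCs at 26.9 FPKM.

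Measured against a fixed threshold, 6 members were at least 4-fold higher in NPCs than in diploid ESCs on FPKM plus 1, namely HOXB9, HOXB7, HOXA7, HOXA9, HOXB5 and HOXB6. This is 17.1% of the 35, beside 5.06% of all 23697 rows. No member was at least 4-fold lower, beside 3.73% of all rows. The member just inside the threshold was HOXB6, at a log2 ratio of 2.04, and those just outside it were HOXC8 at 1.93 and HOXB4 at 1.87. The median log2 ratio of the members was 0.305, beside 0.014 for all genes. By cluster the median was 1.87 for HOXB, 0.69 for HOXC, 0.312 for HOXA and -0.055 for HOXD. Rescaling by trimmed mean factors shifted the median of genes averaging 1 FPKM or more by -0.13 in this comparison and left HOXB6 short of 4-fold. Against haploid ESCs, 5 members were at least 4-fold higher in NPCs, or 14.3%, beside 7.07% of all rows, HOXB6 again falling short. No member changed the sign of its NPC ratio under that scaling or when each library was rescaled to 1000000.

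Adding 1 to FPKM hides differences of genes with low values. With a pseudocount of 0.1, 15 members were at least 4-fold higher in NPCs than in diploid ESCs, beside 11.9% of all rows, adding HOXA2, HOXA5, HOXA6, HOXB3, HOXB4, HOXB8, HOXC4, HOXC8 and HOXC9, and HOXB1 and HOXD1 were the 2 members at least 4-fold lower, beside 9.28% of all rows. All 15 lie between paralogue numbers 2 and 9, and none of them is a HOXD gene.

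Between haploid and diploid ESCs, HOX genes numbered 4 and above differed little on FPKM plus 1, and the largest differences lay in HOXB1, HOXB2 and HOXD1. That scale hides differences between low values. Examples are HOXB9, at 0.22 FPKM in diploid and 0.53 in haploid ESCs, and HOXA7, at 0.1 and 0.04 FPKM. HOXB2 alone was at least 4-fold lower in haploid ESCs, with a log2 ratio of -2.05, just past the threshold. That is 2.9% of the members, beside 1.54% of all rows, which for 35 members is near that background. No member was at least 4-fold higher, beside 0.637% of all rows, and the median log2 ratio was 0.029, beside 0 for all genes. HOXD1, an anterior HOXD gene, reached 0.79 FPKM in diploid ESCs and had a listed value of 0 in the other libraries. With HOXB1, also listed at 0 in haploid ESCs, these are the anterior-most genes of the HOXB and HOXD clusters. Paralogues 1 to 3 together held 59.9% of the HOX FPKM of diploid ESCs and 9.6% of that of haploid ESCs.

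By any amount, 21 of the 35 members were higher in haploid ESCs and 11 were lower, beside 45.1% higher and 48.6% lower of all rows. HOXC8, at 0.35 and 0.74 FPKM, had the highest ratio, 0.37 on the log2 scale. HOXC genes summed to 1.36 FPKM in the diploid and 2.27 in the haploid library. The direction of HOXB8, at a log2 ratio of -0.086, turned to 0.049 when each library was rescaled to 1000000, a scaling that raised the median of genes averaging 1 FPKM or more by 0.187 in this comparison.

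Summed levels of endoderm, mesoderm and neural crest markers were, like HOXB1, HOXB2 and HOXD1, lower in haploid than in diploid ESCs. All 5 endoderm markers were at least 4-fold lower in haploid than in diploid ESCs, beside 1.54% of all rows, with sums of 263 FPKM in the diploid ESC library, 16.5 in the haploid one and 19.1 in NPCs, and SOX17 was at 60.4 FPKM in the diploid and 0.1 in the haploid library. The 6 markers of paraxial and posterior mesoderm summed to 5.34, 1.43 and 7.79 FPKM, of which PAX3, also a gene of the dorsal neural tube, made up 6.31 FPKM in NPCs, while TBXT was at 0.85, 0.03 and 0 FPKM and MSGN1 was at 0 in both ESC libraries. The 5 neural crest markers summed to 67.0, 18.8 and 4.9 FPKM, with FOXD3, which pluripotent cells also express, at 58.4 FPKM in diploid ESCs. No mesoderm or neural crest marker was at least 4-fold lower in haploid than in diploid ESCs, beside 1.54% of all rows. TCF15, at 3.39 FPKM in diploid and 0.97 in haploid ESCs, made up most of the mesoderm sum in diploid ESCs. PAX3 was slightly higher in haploid ESCs, at 0.18 FPKM against 0.1 in diploid ESCs. The part of these markers in the HOX result was not tested.

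Fibroblast markers, which feeder cells or stray fibroblasts would bring, were mostly lower in NPCs than in ESCs. The 8 genes summed to 470 FPKM in the diploid and 698 in the haploid ESC library and 114 in NPCs, and none was at 0 in any library. LUM and DCN differed from this, LUM being at 0.98, 0.26 and 2.17 FPKM and DCN at 0.87, 1.6 and 1.13 FPKM. The part of such cells in the HOX levels was not tested. Motor neuron markers were almost absent, with sums over 5 genes of 1.2 FPKM in diploid stem cells, 0.09 FPKM in haploid stem cells and 0.32 FPKM in progenitors. MNX1, LHX3 and CHAT were at 0 in NPCs.

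Rows within the HOXB cluster that the reference gene table lists as non-coding were, like most genes around them, highest in NPCs. LOC106994015, whose span overlaps HOXB5 and HOXB6, was at 0.07 FPKM in the diploid ESC library, 0.22 in the haploid one and 2.9 in NPCs. LOC106994016, within HOXB3 and HOXB4, was listed at 0 in both ESC libraries and was at 0.45 FPKM in NPCs. LOC106994014, which overlaps HOXB2 and HOXB3, was at 2.14, 1.15 and 4.83 FPKM, so it kept a level in haploid ESCs at which HOXB2 was at 0.09 FPKM. In the HOXD cluster LOC106992625, also listed as non-coding, was at 0.08 FPKM in diploid ESCs and at 0 elsewhere. The deposited table instead annotates each row named here as a homeobox protein of a HOX group. For LOC106994014 that is the group that HOXA3, HOXB3 and HOXD3 share. None of these rows is a member, so their values enter no HOX sum. Whether they hold HOX mRNA was not tested. The overlaps are those of another assembly than the one used for counting. Without strand, these rows and the HOX genes they overlap cannot be told apart.

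Of 12 genes just outside the clusters 11 were found, and their median log2 ratio of NPCs to diploid ESCs was 0.06, beside 0.014 for all genes. None of these 11 was at least 4-fold higher or lower, beside 5.06% and 3.73% of all rows, which for 11 genes is near that background. EVX1 and EVX2, homeobox genes at the posterior ends of HOXA and HOXD, were at 0.13 and 0.04 FPKM in NPCs and at most 0.02 FPKM in ESCs. SKAP1, which flanks HOXB on its anterior side, was at 1.52 FPKM in diploid ESCs and 0.88 in NPCs, with 0 listed for haploid ESCs, the same order of libraries as HOXB2. TTLL6, on the posterior side, was at 1.19, 0.05 and 0.31 FPKM.

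HOX proteins bind DNA with PBX and MEIS family partners, and the MEIS genes were higher in NPCs than in ESCs. Of 9 cofactor genes, all measured, 3 were at least 4-fold higher in NPCs than in diploid ESCs, beside 5.06% of all rows, and 0 lower, beside 3.73%, with a median log2 ratio of 1.46. They were MEIS3, at 5.95 FPKM in the diploid and 40.2 in the haploid ESC library and 172 in NPCs, MEIS2, at 0.85, 0.86 and 17.3 FPKM, and MEIS1, at 0.1, 0.62 and 6.59 FPKM. MEIS3 was also the single cofactor of the 9 at least 4-fold higher in haploid than in diploid ESCs, beside 0.637% of all rows. PBX2 was already present in ESCs, at 63.0, 57.0 and 55.0 FPKM in the same order, whereas PBX4 was at 0.35, 0.36 and 4.06 FPKM.

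Among 15 upstream regulators, 3 were at least 4-fold higher and 3 at least 4-fold lower in NPCs than in diploid ESCs, beside 5.06% and 3.73% of all rows, with a median log2 ratio of -0.26. The higher ones were GBX2, a gene of the anterior hindbrain, at 1.26 FPKM in diploid stem cells, 1.83 FPKM in haploid stem cells and 109 FPKM in progenitors, and CYP26B1 and CYP26C1, which degrade retinoic acid, at 5.3 and 6.76 FPKM in NPCs and at most 0.41 FPKM in ESCs. The lower ones were EGR2, which in the mouse activates HOXB2 in the hindbrain and was at 14.9, 5.61 and 0.34 FPKM, the retinoic acid receptor RARG, at 9.05, 3.33 and 0.15 FPKM, and CDX4. EGR2 and HOXB2 were both lower in haploid than in diploid ESCs, whereas in NPCs EGR2 was at its lowest and HOXB2 near its diploid ESC level. Any part of EGR2 in the HOXB2 levels was not tested. CYP26A1 was at 55.9 FPKM in the diploid ESC library, 1.37 in the haploid one and 25.6 in NPCs, the same order of libraries as HOXB2.

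CDX genes, the ParaHox relatives that activate trunk HOX genes in the embryo, were listed at 0 in NPCs. CDX4 was at 5.59 FPKM in the diploid and 17.2 in the haploid ESC library, with a listed value of 0 in NPCs, and CDX1 and CDX2 were at most 0.2 FPKM in ESCs. Any part of the CDX genes in the HOX levels was not tested. Of the 6 ParaHox genes 5 were found, and CDX4 was the 1 member at least 4-fold lower in NPCs than in diploid ESCs, beside 3.73% of all rows.

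Polycomb and trithorax genes, which hold HOX clusters silent or active, were present in all libraries. Of 24 members, 2 were at least 4-fold higher in NPCs than in diploid ESCs and 1 was lower, shares near the 5.06% and 3.73% of all rows, with a median log2 ratio of -0.06. PHC1 was at 103 FPKM in the diploid and 67.4 in the haploid ESC library and 6.51 in NPCs, while its paralogue PHC2 was at 30.6, 27.7 and 146 FPKM. RBBP5, a subunit of the trithorax-type methyltransferase complexes, was at 17.2, 14.5 and 82.2 FPKM, and the polycomb methyltransferase gene EZH2 was at 29.3, 46.7 and 57.5 FPKM.

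Trunk HOX genes stood beside genes of more anterior levels in the NPC library. Of 15 forebrain and midbrain genes 14 were found, of which 3 were at least 4-fold higher in NPCs than in diploid ESCs, beside 5.06% of all rows, and 1 was lower, beside 3.73%. EN1, EN2 and PAX8, genes of the midbrain-hindbrain region, were at 41.7, 48.3 and 63.0 FPKM in NPCs, each above HOXB9, and at most 0.46 FPKM in ESCs. Other genes of the midbrain and its border with the hindbrain were near 0 in NPCs, with PAX2 at 0.04 FPKM, PAX5 at 0.2 FPKM and DMBX1 listed at 0. The forebrain genes SIX3 and EMX2 were low, at 0.32 and 0.26 FPKM in NPCs. OTX1, of the same list, was highest in NPCs, at 0.76, 0.02 and 1.44 FPKM. OTX2, which pluripotent cells share with the forebrain and midbrain, was at 112 FPKM in diploid stem cells, 44.7 FPKM in haploid stem cells and 6.14 FPKM in progenitors. Whether the same cells carried the EN and HOX transcripts cannot be told from a bulk library.

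**Figure D4:**
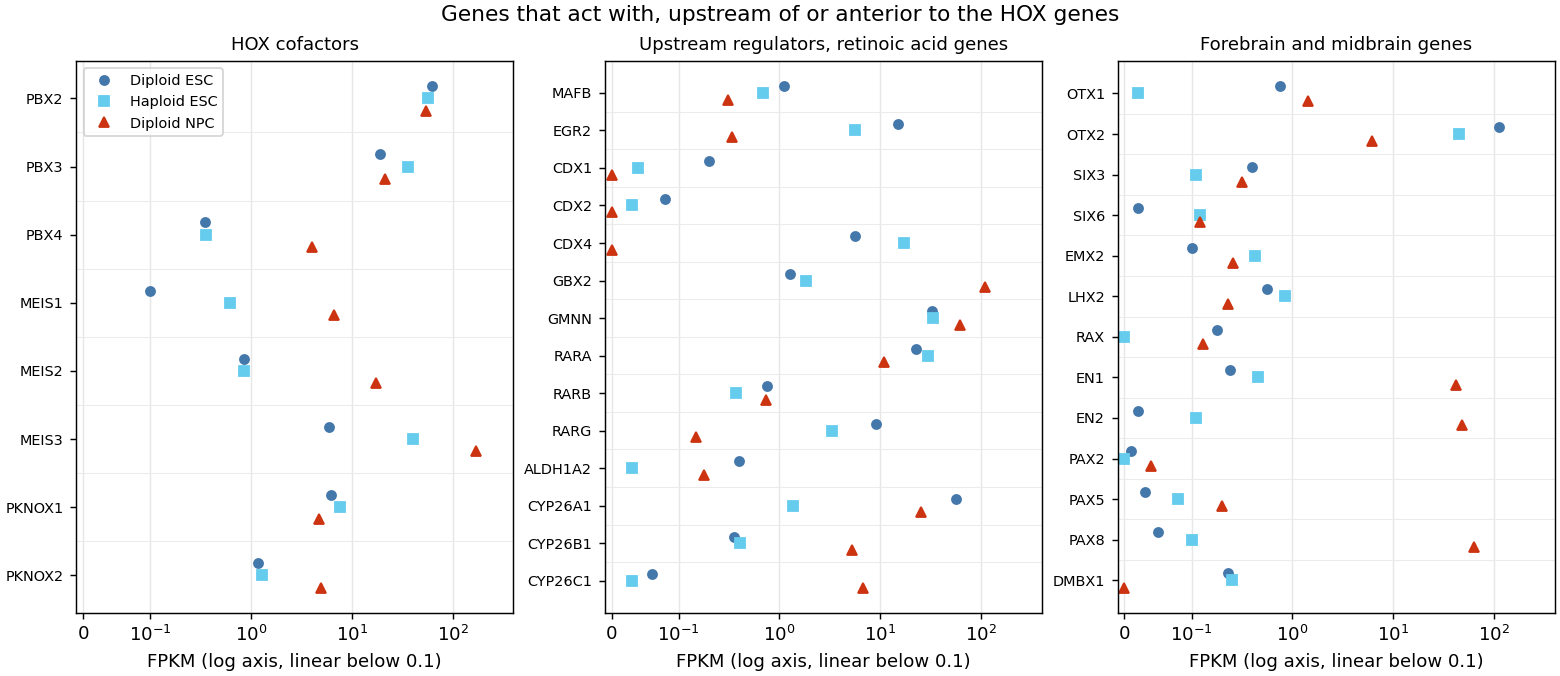
FPKM of named HOX cofactors, upstream regulators and forebrain and midbrain genes in diploid ESCs (circles), haploid ESCs (squares) and diploid NPCs (triangles), 1 library each; the axis is logarithmic above 0.1 FPKM and linear below it. MEIS3 at 172 FPKM, GBX2 at 109 FPKM and PAX8 at 63.0 FPKM are the highest NPC values of their panels, and CDX1, CDX2 and CDX4 are at 0 in NPCs.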

How the data were processed

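Per the labels' protocols, Trizol total RNA was sequenced on the BGISEQ-500, reads with up to 2 mismatches were mapped to the UCSC assembly named Rhesus8 with STAR 2.4 and featureCounts gave the reads per gene with its defaults; genes needed over 10 reads in total to be kept. The authors deposited FPKM to 2 decimals; the sources used here do not give the formula. Column names were matched to sample descriptions: 3 matched, and 1 column of sample values matched no sample and was not used in any step, so the planned haploid NPC comparisons were not made. Read totals are unknown; column sums of FPKM were 568734, 492324 and 600215 in diploid ESCs, haploid ESCs and NPCs.

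Values were used as deposited. Log2 ratios are of FPKM plus 1 and understate changes of low genes; all 23697 rows were counted, and the threshold was 4-fold. Genes were matched by symbol, or by gene ID in the T2T-MMU8v2.0 gene table, which holds 19875 of the IDs. That table is of another assembly than the one used for counting. It served for names, gene types, gene order and the overlaps named above, which may differ in the annotation behind the counts. Of the 35 HOX rows, 32 rest on predicted transcript models only, so lengths behind FPKM may be inexact. Any HOX or list gene could be named; a few are counted in sums and lists but not reported here singly. The members and lists were chosen with earlier results of these data known. Relative depth is the most frequent ratio of values from 0.15 to 0.6 FPKM, over 1311 and 905 genes. Python 3.11.15, numpy 2.4.6, pandas 2.3.3 and matplotlib 3.10.9 were used. Only the ratio, threshold and trimmed mean steps were tested, on the diploid ESC values with known changes put in. Alternatives were another pseudocount, filters, scalings, thresholds, name matching and reference library.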

Additional observations from a re-analysis of the deposited data

How the results depend on the processing

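No paired analysis was possible because each group holds 1 library and the columns carry no replicate numbers that pair them. In NPCs against diploid ESCs, members higher numbered 15 with a pseudocount of 0.1, 1 where a mean of 5 FPKM was required, 13 at a 2-fold and 2 at an 8-fold threshold, and members lower numbered 2 with a pseudocount of 0.1 and 1 at 2-fold. The median was 1.16 with a pseudocount of 0.1, 2.04 where a mean of 1 FPKM was required and 4.14 where 5 was, which keeps HOXB9 alone. The count of members higher was 5 under trimmed mean scaling, 9 under rescaling to 1000000 and 5 against haploid ESCs. Of all 23697 rows, 999, 1455 and 1676 were higher at these settings. With a pseudocount of 0.1, 11.9% of all rows were higher and 9.28% lower. In haploid against diploid ESCs, members lower numbered 3 with a pseudocount of 0.1, 2 at 2-fold, and 0 both at 8-fold and where a mean of 5 FPKM was required. For these haploid counts, and for the other thresholds and filters, the share of all rows was not computed. Those counts show only how the calls move with the setting. Members at the detection level numbered 5 and 4 in diploid and haploid ESCs at 0.5 FPKM and again after rescaling, and 0, 0 and 3 in diploid ESCs, haploid ESCs and NPCs at 5 FPKM. Rescaled to 1000000, the sums in diploid ESCs, haploid ESCs and NPCs were 0.70, 1.36 and 19.1 for HOXA, 12.99, 5.46 and 86.0 for HOXB, 2.39, 4.61 and 18.9 for HOXC and 2.2, 1.5 and 0.20 for HOXD. A change was counted as large past 1.5-fold. Matching by gene ID gave the same 35 members.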
